A study of Mus musculus with 15 samples.

Results

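Cholesterol synthesis was followed through 8 of its enzymes, Hmgcs1, Idi1, Fdft1, Sqle, Lss, Cyp51, Sc5d and Dhcr7, in mouse oocytes measured on Affymetrix arrays. The members were all probe sets that the array annotation assigns to exactly 1 of these symbols, with Sc5d also accepted under its older name. They made up 22 of the 45101 probe sets on each array, and 19 of the 22, covering all 8 genes, had enough signal to enter the statistical test. The 15 arrays each held poly(A) RNA of a pool of 150 oocytes from B6D2F1 hybrid females primed with PMSG (pregnant mare serum gonadotropin), which drives follicle growth. Metaphase II (MII) oocytes, the stage of ovulation, came from 5 groups, all freed of cumulus cells with hyaluronidase. Oocytes matured in culture for 16 h came from prepubertal females of 20 days (d20 in vitro, n = 3), peripubertal females of 26 days (d26 in vitro, n = 3) and adults of 7 to 8 weeks (adult in vitro, n = 2). Oocytes matured in the animal after human chorionic gonadotropin, given 48 h after PMSG, came from females of 26 days (d26 in vivo, n = 2) and adults (adult in vivo, n = 3). Germinal vesicle (GV) oocytes, which are still arrested with an intact nucleus, were taken from adults 48 h after PMSG and gave the last group (adult GV, n = 2). The labels do not say whether the pools came from separate animals, so the spread between arrays may be technical, and the number of arrays limits the precision of every value.

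Cells build cholesterol from acetyl-CoA through mevalonate, the isoprenoid units made from it, squalene and a series of sterols. Hmgcs1 makes the substrate of the rate-limiting step, Idi1 interconverts the isoprenoid building blocks, and Fdft1 (squalene synthase) joins 2 farnesyl diphosphates into squalene. Sqle and Lss turn squalene into lanosterol, Cyp51 removes a methyl group from it, and Sc5d and Dhcr7 act at the end of the sterol series. The genes are classical targets of the SREBP transcription factors, which become active when sterols run low. Mouse oocytes are known to rely in part on cumulus cells for cholesterol, and transcription is largely silent from the fully grown GV stage through MII, while many stored transcripts lose poly(A) or are degraded. Because RNA was captured by its poly(A) tail and pooled, fewer transcripts, shorter tails and fewer contributing cells cannot be told apart here.

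The upstream sequences of Hmgcs1 and Idi1 are shown because that of Hmgcs1 holds the sterol regulatory element core searched for and that of Idi1 does not. Idi1 was called higher in MII than in GV oocytes with normalized values and Hmgcs1 was not. With median scaling Hmgcs1 too was called higher in adult in vitro MII oocytes. A link between the motifs and these calls was not tested. Both are the 250 bases before the annotated start, from RefSeq on GRCm38.p6, plus strand, chr13:119690101-119690350 for Hmgcs1 and chr13:8885356-8885605 for Idi1. Capitals mark the sterol regulatory element core CACCCCAC, the CCAAT box CCAAT and the GC box GGGCGG, searched on both strands, so that a match on the minus strand is seen as its reverse complement, and no 2 of these motifs share a base here.
Hmgcs1: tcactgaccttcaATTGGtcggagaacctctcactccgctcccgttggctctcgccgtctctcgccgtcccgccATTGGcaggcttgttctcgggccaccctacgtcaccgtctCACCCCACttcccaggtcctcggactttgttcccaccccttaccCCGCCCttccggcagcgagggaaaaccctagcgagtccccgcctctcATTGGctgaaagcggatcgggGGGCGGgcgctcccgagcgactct
Idi1: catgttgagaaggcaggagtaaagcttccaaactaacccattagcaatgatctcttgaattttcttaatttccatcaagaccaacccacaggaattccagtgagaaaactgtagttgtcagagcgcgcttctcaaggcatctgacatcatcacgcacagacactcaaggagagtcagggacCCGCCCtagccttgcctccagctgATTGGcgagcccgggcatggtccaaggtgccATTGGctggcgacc
Hmgcs1 holds 1 sterol regulatory element core, 136 bases before the start, 3 CCAAT boxes and 2 GC boxes. Idi1 holds 2 CCAAT boxes, 1 GC box and no exact match to the sterol element core. Promoter windows were found for 6 of the 8 members, and among them only that of Hmgcs1 had the sterol element core, which occurs in 2.58% of 32851 windows of the same length. The CCAAT and GC box letters are common, in 33.8% and 32.7% of windows. The absence of a match says only that these letters are not in the window.

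Arrays differed in brightness. The 4 dim arrays were replicates 2 and 3 of the d26 in vitro group, replicate 1 of the adult in vivo group and replicate 2 of the adult in vitro group. On these 2615 to 3042 probe sets exceeded an intensity of 200, against 4882 to 6734 in the other MII arrays and 9819 and 9696 in GV. The values given are log2 intensities brought to a common distribution by quantile normalization, unless called deposited intensities. All 12 oocyte markers had group means above the filter level of 3.07, below which signal is treated as too low to test, in every group. Their summed normalized intensity was 34766 to 42483 in adult in vivo and 29636 to 38837 in adult in vitro MII oocytes. In GV oocytes it was 63370 to 76784, and on the deposited scale the adult MII sums were lower too.

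The first question was how transcripts for these enzymes differed between MII and GV oocytes of adults. Fdft1 was far lower at MII by the 2 probe sets that were bright in GV oocytes, Idi1 and Sc5d were higher with normalized values but not with the intensities as deposited, and Hmgcs1, Sqle, Lss, Cyp51 and Dhcr7 had no probe set past the test. With limma, at a Benjamini-Hochberg adjusted p below 0.05 over all 22519 tested probe sets, 6 of the 19 member probe sets were called after maturation in vivo, 2 lower and 4 higher. Over all tested probe sets 26.8% were called, 11.1% lower and 15.7% higher. After maturation in vitro the same counts held, 2 lower and 4 higher, against 27.7% of all tested probe sets, 11.7% lower and 16.0% higher. The members' shares therefore lay near those of the whole array. Their median difference was 0.01 in vivo and 0.34 in vitro, beside 0.24 and 0.13 over all tested probe sets. Arrays of the compared groups did not overlap for 10 of 19 members in vivo (55.3% of all tested) and for 15 of 19 in vitro (66.6% of all tested). Both comparisons use the same 2 GV arrays.

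**Figure D1:**
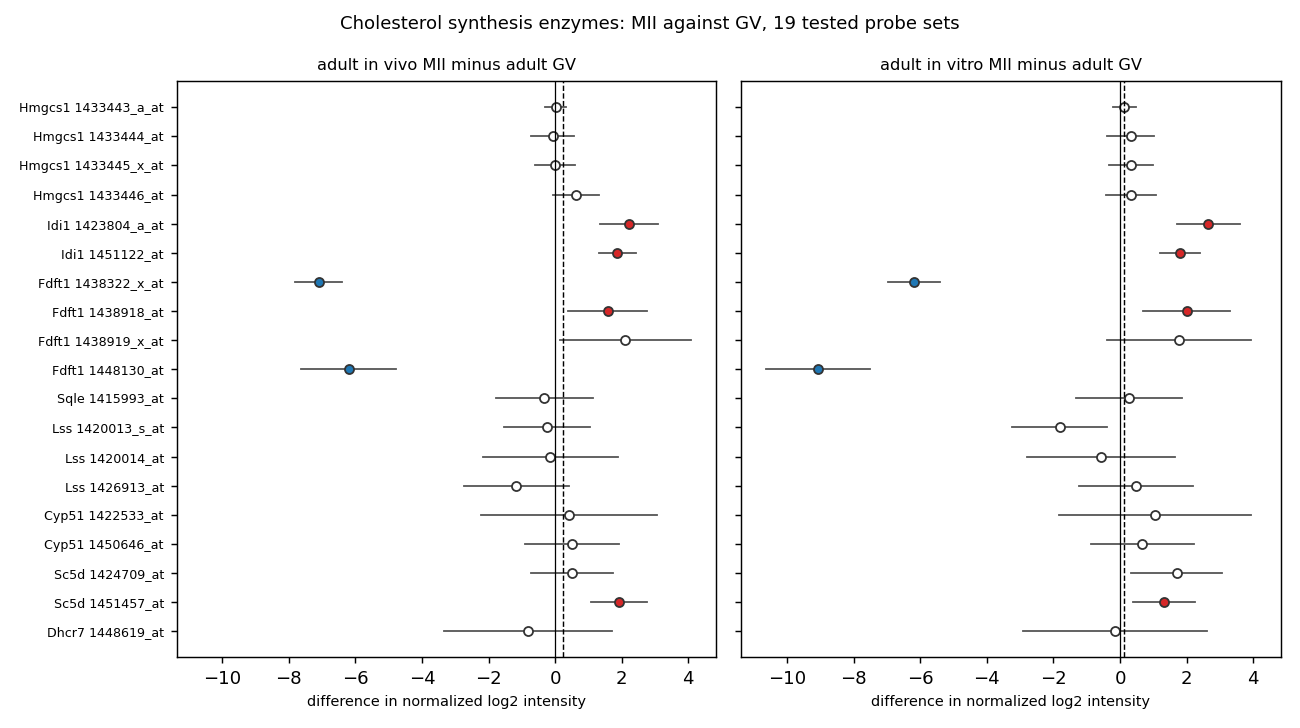
Difference in normalized log2 intensity between adult MII and adult GV oocytes for the 19 tested probe sets, after maturation in vivo (left) and in vitro (right). Points are estimates, bars 95% confidence intervals, filled points have an adjusted p below 0.05 (blue lower, red higher in MII) and the dashed line is the median of all tested probe sets. Fdft1 1438322_x_at and 1448130_at lie between -6.19 and -9.07, far below all other members, and the Hmgcs1 points lie close to 0; with deposited intensities the red points were not called and 3 of those in vitro fell below 0.

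Hmgcs1 had no probe set called. Its probe set 1433443_a_at read 13.77, 13.39 and 13.51 in adult in vivo MII oocytes and 13.72 and 13.64 in adult in vitro MII oocytes, against 13.55 on both GV arrays. The younger groups fell in the same range, with 13.56, 13.38 and 13.47 in d20 in vitro, 13.53 and 13.44 in d26 in vivo and 13.43, 13.66 and 13.56 in d26 in vitro. No group stood apart. The probe set lay at percentile 99.9 or above of its array on all 15 arrays, where quantile normalization leaves almost no room for values to differ, so the narrow range does not show a constant transcript level. The difference between adult in vivo MII and GV was 0.01 (SE 0.15, 95% interval -0.32 to 0.34), and that between adult in vitro MII and GV was 0.13 (SE 0.17, 95% interval -0.23 to 0.49). Deposited intensities of this probe set ran from 5848 to 16676. With median scaling it was instead called higher in adult in vitro MII oocytes (1.18, adjusted p = 0.0394 by limma). Probe sets 1433444_at, 1433445_x_at and 1433446_at were not called in either comparison, with differences from -0.08 to 0.62, but 1433446_at was called higher in vivo with array weights (0.61, adjusted p = 0.0255 by limma). The fifth, 1441536_at, had deposited intensities of 0.33 to 8.26 and was not tested.

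Idi1, the isoprenoid isomerase, was higher in MII oocytes by both of its probe sets after normalization, although with the intensities as deposited neither was called and 1451122_at was lower by 0.48 in adult in vitro oocytes. Probe set 1451122_at read 10.18, 10.14 and 10.65 in adult in vivo MII oocytes and 10.40 and 10.13 in adult in vitro MII oocytes, against 8.70 and 8.22 in GV oocytes. The other MII groups ran from 9.90 to 10.46, so that all 13 MII arrays lay above both GV arrays. The difference from GV was 1.86 in vivo (SE 0.26, adjusted p = 0.000125 by limma), a 3.64-fold higher intensity, and 1.81 in vitro (SE 0.28, adjusted p = 0.000314 by limma). Probe set 1423804_a_at gave 10.66, 9.97 and 9.66 in adult in vivo MII oocytes and 10.22 and 10.84 in adult in vitro MII oocytes, against 8.21 and 7.54 in GV oocytes. Its differences were 2.22 in vivo (SE 0.40, adjusted p = 0.000861 by limma) and 2.65 in vitro (SE 0.44, adjusted p = 0.000489 by limma). Over the 15 arrays the Idi1 probe sets correlated with r = 0.81, but over the 13 MII arrays alone r was -0.14, as a description of arrays that share normalization and brightness.

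The deposited intensities of Idi1 depended on the brightness of the array. On the 9 brighter MII arrays 1451122_at had 1254 to 2663, all above the 1136 and 838 of the GV arrays. On the 4 dim MII arrays it had 389 to 500, all below both GV arrays. For 1423804_a_at the brighter MII arrays had 972 to 1607 and the dim ones 265 to 728, beside 869 and 596 in GV. Without the 4 dim arrays the normalized differences of 1451122_at were 1.83 in vivo and 1.84 in vitro, the in vitro value from adult in vitro replicate 1 alone. With median scaling 1423804_a_at was called in both comparisons and 1451122_at in neither (adjusted p = 0.0505 in vivo and 0.162 in vitro by limma).

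Fdft1, which commits the pathway to sterols, had the largest differences among the members. Its probe set 1438322_x_at read 5.97, 6.24 and 5.97 in adult in vivo MII oocytes and 7.16 and 6.77 in adult in vitro MII oocytes, against 13.15 and 13.18 in GV oocytes. Over all 13 MII arrays it ran from 5.82 to 7.16, so every MII array of every age lay far below the GV arrays, and deposited intensities were 20.5 to 153 in MII against 12064 and 10826 in GV. The difference was -7.10 in vivo (SE 0.33, adjusted p = 4.61e-08 by limma), 138-fold lower, and ranked 15 of 22519 among the falls. In vitro it was -6.19 (SE 0.36, adjusted p = 1.03e-06 by limma), 73.2-fold lower, and ranked 133 of 22519. The _x_at suffix marks a probe set in which some probes can also match other transcripts.

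A second probe set, 1448130_at, without that suffix, showed the same direction. It read 3.86, 4.73 and 2.98 in adult in vivo MII oocytes and 0.76 and 1.21 in adult in vitro MII oocytes, against 9.57 and 10.54 in GV oocytes. Deposited intensities were 1.13 to 50.8 over the 13 MII arrays, against 1786 and 2624 in GV. The difference was -6.20 in vivo (SE 0.67, adjusted p = 2.13e-05 by limma) and -9.07 in vitro (SE 0.73, adjusted p = 3.48e-06 by limma). Both adult in vitro arrays and 1 adult in vivo array lay below the filter level, so the direction is given by the data but the size of the fall, above all in vitro, is not. Both falls were called under all 9 other settings and with each of the 15 arrays left out.

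The other Fdft1 probe sets were dim and ran the other way. Probe set 1438918_at read 6.54, 5.45 and 5.19 in adult in vivo MII oocytes and 5.73 and 6.57 in adult in vitro MII oocytes, against 4.17 and 4.13 in GV oocytes. It was called higher in vivo (1.58, SE 0.55, adjusted p = 0.0474 by limma) and in vitro (2.00, SE 0.61, adjusted p = 0.0225 by limma), with deposited intensities of at most 67.4 on any array, and with those intensities it was called in neither comparison and was lower by 0.09 in vitro. The in vivo call also ended with 10 of the 15 arrays left out in turn. Probe set 1438919_x_at was not called (2.11 in vivo, adjusted p = 0.111, and 1.76 in vitro, adjusted p = 0.228, by limma), was called higher in vivo with array weights (adjusted p = 0.0161) and reached 52.1 at most. Over the 15 arrays 1438918_at correlated with 1438322_x_at at r = -0.59, and 1448130_at with it at 0.81. Over the 13 MII arrays alone these values were 0.23 and -0.67, so neither sign held among MII oocytes. The files do not say which part of the transcript each probe set reads.

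**Figure D2:**
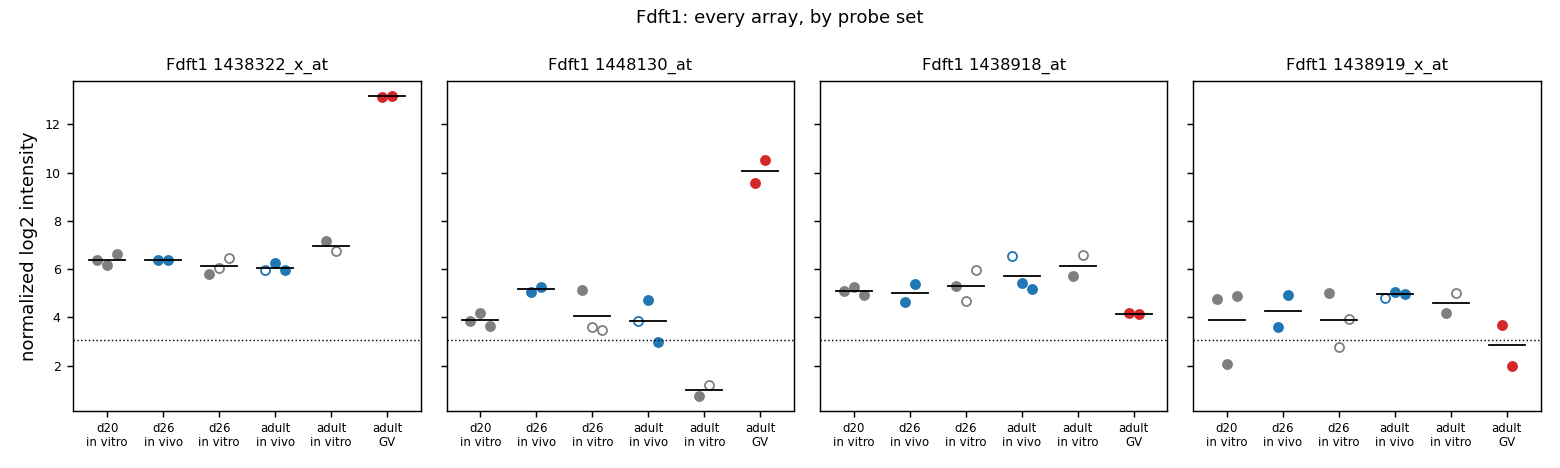
Normalized log2 intensity of the 4 Fdft1 probe sets on every array, by group, with bars at group means and the filter level of 3.07 dotted; open circles are the 4 dim arrays. For 1438322_x_at and 1448130_at all 13 MII arrays lie below both GV arrays, while 1438918_at runs the other way after normalization, though not on the deposited scale in adult in vitro oocytes.

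The enzymes that turn squalene into lanosterol did not pass the test. Sqle read 6.64, 6.24 and 6.97 in adult in vivo MII oocytes and 7.23 and 7.19 in adult in vitro MII oocytes, against 7.18 and 6.71 in GV oocytes, so that the in vivo arrays overlapped GV and the in vitro arrays lay just above it. Its differences were -0.33 in vivo (SE 0.68, 95% interval -1.79 to 1.13) and 0.26 in vitro (SE 0.75, 95% interval -1.34 to 1.86). Of the 3 Lss probe sets, the brightest, 1420013_s_at, read 5.32, 5.46 and 5.12 in adult in vivo MII oocytes and 2.72 and 4.75 in adult in vitro MII oocytes, against 5.68 and 5.41 in GV oocytes. Its difference in vitro was -1.81 (SE 0.67, adjusted p = 0.0561 by limma), and it was called lower under 6 of the 9 other settings. These include the fit without the dim arrays (-2.93), which rested on adult in vitro replicate 1 alone, the array that read 2.72. On the deposited scale Sqle had 8.79 to 256 on the 13 MII arrays, all below the 514 and 373 of GV, and Lss 1420013_s_at had 6.44 to 73.8, all below 189 and 145.

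Cyp51, Sc5d and Dhcr7 work on the sterols that follow, and of these only Sc5d had a call. Its probe set 1451457_at read 9.28, 9.98 and 10.29 in adult in vivo MII oocytes and 9.99 and 8.54 in adult in vitro MII oocytes, against 8.01 and 7.87 in GV oocytes, and the other MII groups ran from 9.12 to 10.01. The normalized differences were 1.91 in vivo (SE 0.40, adjusted p = 0.00227 by limma) and 1.32 in vitro (SE 0.44, adjusted p = 0.0344 by limma), but with deposited intensities they were 0.30 and -1.27 and not called. As for Idi1, the 9 brighter MII arrays had deposited intensities of 897 to 2098, all above the GV values of 789 and 710, and the 4 dim ones 106 to 305, all below them. Both calls also ended with median scaling (in vitro 0.14, adjusted p = 0.910 by limma). The in vitro call further ended with the compared arrays alone, with no intensity trend, without either GV array and without adult in vitro replicate 1, the array that is not dim (0.59, adjusted p = 0.353 by limma). Probe set 1424709_at differed by 0.51 in vivo and by 1.70 in vitro (adjusted p = 0.0608 by limma), and the in vitro difference was called under 4 of the 9 other settings, among them the fit with array weights (adjusted p = 0.0276).

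Dhcr7, the last enzyme of the pathway, read 4.23, 4.80 and 5.24 in adult in vivo MII oocytes and 6.36 and 4.50 in adult in vitro MII oocytes, against 5.45 and 5.71 in GV oocytes. Its differences, -0.82 in vivo (95% interval -3.34 to 1.70) and -0.15 in vitro (95% interval -2.91 to 2.61), were not called. The dim array d26 in vitro replicate 2 read 0.88, below all other arrays, and the same array was lowest for Sqle at 4.16. Deposited Dhcr7 intensities were 0.94 to 124 on the MII arrays, all below 156 and 187 in GV. Cyp51 1450646_at had differences of 0.50 in vivo and 0.68 in vitro, and 1422533_at of 0.42 and 1.05, none of them called. Deposited intensities of the tested Cyp51 probe sets did not exceed 47.6 on any array. The untested probe sets, Cyp51 1422534_at and Sc5d 1434520_at, reached 16.6 and 32.2.

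**Figure D3:**
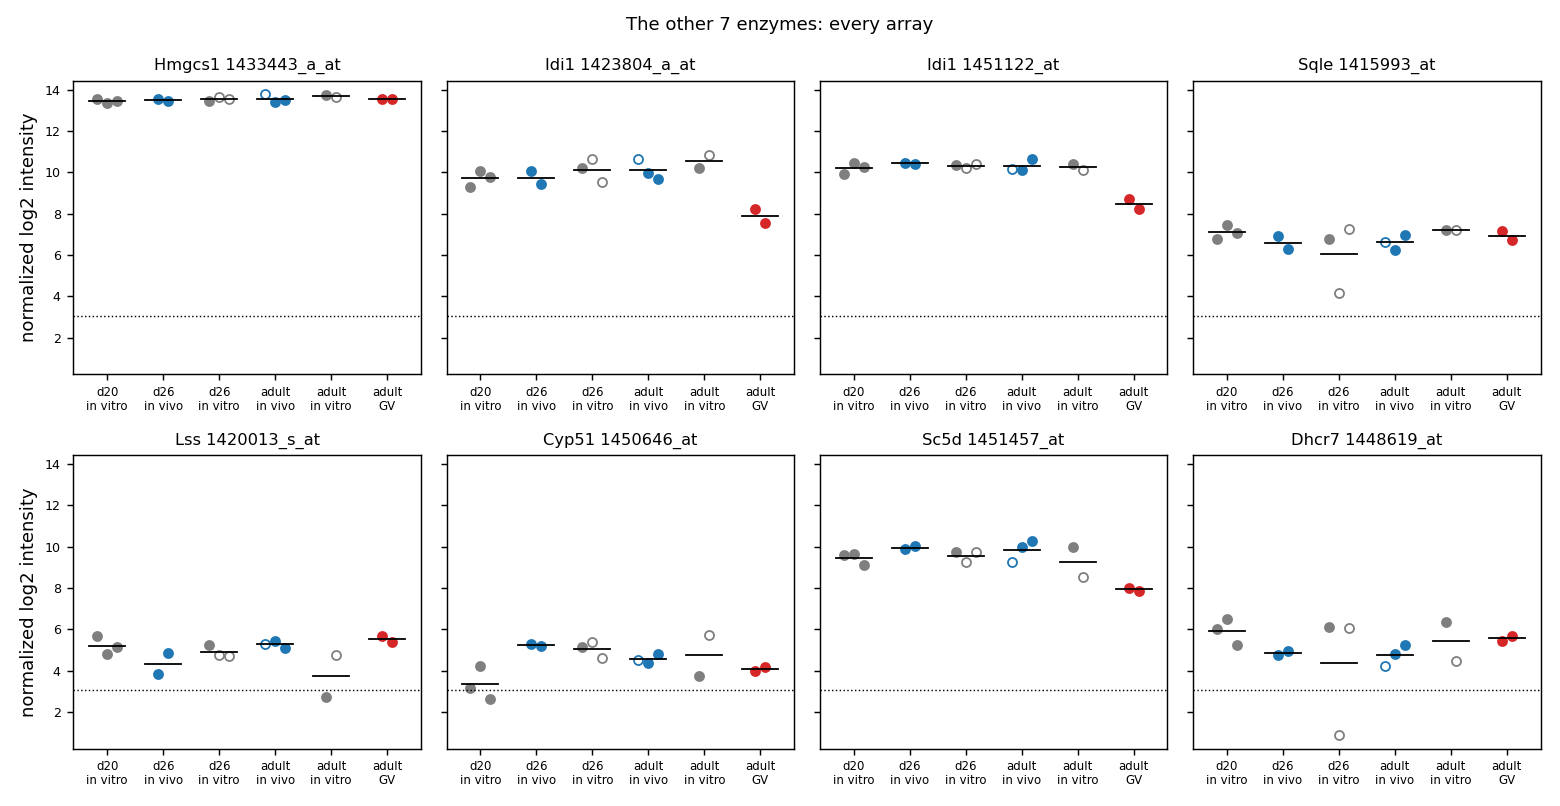
Normalized log2 intensity on every array for the other 7 enzymes, with both Idi1 probe sets and the brightest of the remaining genes; bars are group means, open circles the 4 dim arrays and the dotted line the filter level. Hmgcs1 stays between 13.38 and 13.77, at the top of the normalized range, and Idi1 and Sc5d lie above GV on all 13 MII arrays after normalization, though on the deposited scale only on the 9 brighter ones; d26 in vitro replicate 2 is the low open circle for Sqle and Dhcr7.

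Summed normalized signal for cumulus, granulosa and leukocyte markers was also higher in adult MII than in GV arrays, as was the signal of Idi1 and Sc5d. As for those genes, this did not hold on the deposited scale in every group. Of 20 cumulus and granulosa markers 17 had a probe set, and their summed normalized intensity was 605 to 909 in adult in vivo MII oocytes and 813 to 1123 in adult in vitro MII oocytes, against 344 to 352 in GV oocytes. Kitl and Nr5a2 were the largest contributors, and 13 of the 17 had group means at or above the filter level in adult in vivo and 10 in adult in vitro, against 12 in GV. The median of the 17 group means was 4.19 in adult in vivo and 3.67 in adult in vitro, against 3.72 in GV. The higher sum in vitro was thus not shared by the markers as a set. The 8 leukocyte markers summed to 148 to 414 in adult in vivo and 111 to 172 in adult in vitro MII oocytes, against 55.9 to 57.2 in GV, and the 6 oviduct markers to 164 to 494 and 26.8 to 125, against 100 to 105, so that the oviduct sum was above GV on every array only in adult in vivo. On the deposited scale the cumulus and granulosa markers summed to 361 to 1130 in adult in vivo and 355 to 680 in adult in vitro MII oocytes, against 919 to 1062 in GV. The deposited leukocyte sums were 171 to 443 and 67.8 to 94.7, against 98.8 to 129 in GV, and the oviduct sums 151 to 758 and 13.5 to 107, against 286 to 288. Their part in the result was not tested.

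The other comparisons asked whether age of the female or place of maturation changed these transcripts among MII oocytes. With all 15 arrays and quantile normalization no member probe set was called by limma in any of them. For d26 in vivo against d26 in vitro 0 of 19 were called, beside 0.0400% of all tested probe sets, and 0 had an unadjusted p below 0.05. For adult in vivo against adult in vitro 0 were called (0.00444% of all tested) and 4 had an unadjusted p below 0.05. For d20 in vitro against adult in vitro 0 were called (0.0222% of all tested, 0.00444% lower and 0.0178% higher), with 3 at an unadjusted p below 0.05. For d26 in vitro against adult in vitro 0 were called (0.00444% of all tested), with 2. For d20 in vitro against d26 in vitro 0 were called, as over all tested probe sets (0%), with 1 at an unadjusted p below 0.05. The mean of the in vivo against in vitro differences at both ages gave 0 calls (0.226% of all tested, 0.0311% lower and 0.195% higher), with 1 at an unadjusted p below 0.05. The dependence of that difference on age also gave 0 (0% of all tested), with 2. Arrays of the compared groups did not overlap for 2 of 19 member probe sets in d26 in vivo against d26 in vitro (beside 4502 of the 22519 tested) and for 6 in adult in vivo against adult in vitro (19.2% of all tested). The counts were 7 for d20 against adult in vitro (41.5%), 5 for d26 against adult in vitro (16.5%) and 1 for d20 against d26 in vitro (18.5%). Since so few probe sets passed the test anywhere, the counts of 0 do not set the enzymes apart.

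The widest differences among MII oocytes were again in Fdft1. Probe set 1448130_at read 3.85, 4.18 and 3.64 in d20 in vitro, 5.07 and 5.26 in d26 in vivo and 5.14, 3.58 and 3.49 in d26 in vitro oocytes, beside the 3.86, 4.73 and 2.98 of adult in vivo and the 0.76 and 1.21 of adult in vitro oocytes. Both adult in vitro arrays were thus lower than the other 11 MII arrays. The difference was 2.87 for adult in vivo against adult in vitro (SE 0.67, adjusted p = 0.312), 2.91 for d20 against adult in vitro (SE 0.67, adjusted p = 0.112) and 3.09 for d26 against adult in vitro (SE 0.67, adjusted p = 0.292), all by limma and sharing the 2 adult in vitro arrays. Without the 4 dim arrays the age differences were 3.14 for d20 and 4.50 for d26 against adult in vitro. That fit kept 1 adult in vitro array and 1 d26 in vitro array, so 4.50 compares 1 array with 1 array. Such single arrays were assumed to vary like the other groups. The brighter probe set 1438322_x_at went the other way, with -0.91 for adult in vivo against adult in vitro (adjusted p = 0.554), -0.58 for d20 and -0.85 for d26 against adult in vitro, none called. Deposited intensities of 1448130_at were 1.63 and 1.13 in adult in vitro oocytes, too dim to measure a ratio.

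Cyp51 1450646_at read 3.16, 4.22 and 2.65 in d20 in vitro oocytes, against 5.13, 5.39 and 4.60 in d26 in vitro oocytes, without overlap. The difference of -1.70 (SE 0.59, adjusted p = 0.414 by limma) was not called. Lss 1420013_s_at was 1.56 higher on average in adult in vivo than in adult in vitro oocytes (adjusted p = 0.559 by limma), and adult in vitro replicate 1 alone read 2.72. Hmgcs1 and Idi1 had small differences by their brightest probe sets. For Hmgcs1 1433443_a_at the difference was -0.06 for d26 in vivo against d26 in vitro (95% interval -0.39 to 0.27) and -0.21 for d20 against adult in vitro (95% interval -0.54 to 0.11), in the compressed top of the normalized range. For Idi1 1451122_at it was 0.06 for adult in vivo against adult in vitro (95% interval -0.49 to 0.61) and -0.07 for d20 against adult in vitro (95% interval -0.62 to 0.48). The other Idi1 probe set, 1423804_a_at, differed by -0.43 and -0.82 in these comparisons, not called.

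**Figure D4:**
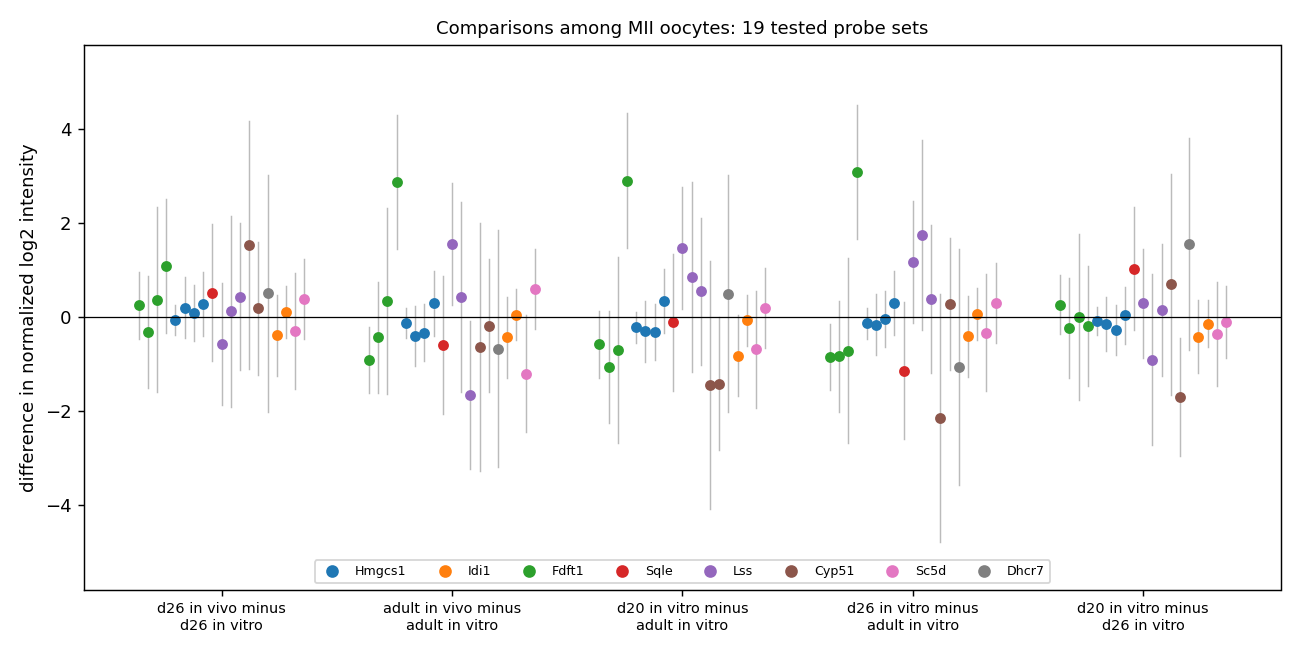
Differences in normalized log2 intensity for the 19 tested probe sets in 5 comparisons among MII oocytes, coloured by gene, with 95% confidence intervals. None passes at an adjusted p below 0.05; the green points near 3 are Fdft1 1448130_at, which is dim in adult in vitro oocytes, and the Hmgcs1 points lie between -0.40 and 0.34.

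Ordered by group mean, Fdft1 1438322_x_at was highest in adult GV (13.16), well apart from adult in vitro (6.97), which in turn did not overlap d20 in vitro (6.39); d26 in vivo (6.38), d26 in vitro (6.12) and adult in vivo (6.06) each overlapped their neighbour. Idi1 1451122_at ran from d26 in vivo (10.44) through d26 in vitro (10.33), adult in vivo (10.32), adult in vitro (10.27) and d20 in vitro (10.20) to adult GV (8.46), with a gap only at either end. Sc5d 1451457_at ran from d26 in vivo (9.95) to adult in vitro (9.26), all overlapping, and then adult GV (7.94). The order of the Hmgcs1 groups spanned only 13.47 to 13.68.

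The remaining enzymes of the pathway had calls in both directions. Of 14 listed, 11 had a probe set of their own symbol and 8 were tested, each by its brightest probe set. In adult in vivo MII against GV oocytes 1 was lower and 2 were higher. In adult in vitro MII against GV 1 was lower and 1 higher. Over all tested probe sets 26.8% and 27.7% were called, so these small counts do not set the list apart. The median differences of the list were 0.11 and 0.79, beside 0.24 and 0.13 over all tested probe sets. Nsdhl, a sterol dehydrogenase, averaged 6.06 in adult in vivo and 5.30 in adult in vitro MII oocytes, against 8.35 in GV (differences of -2.29, adjusted p = 0.00289, and -3.04, adjusted p = 0.000745, by limma). Hsd17b7, a sterol reductase, averaged 10.94 and 11.44, against 9.29 in GV, by 1457248_x_at (1.66, adjusted p = 0.00622, and 2.15, adjusted p = 0.00197, by limma), with no call on deposited intensities. Msmo1, the methyl sterol oxidase, averaged 8.12 and 7.21, against 6.25 in GV (1.87, adjusted p = 0.0159, and 0.97, adjusted p = 0.249, by limma), and its in vivo difference was -0.08 with deposited intensities. The in vivo call of Msmo1 also ended with median scaling, without either GV array and without adult in vivo replicate 3. That of Hsd17b7 ended without GV replicate 1.

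Genes that sense sterols and control SREBP gave 1 lower and 3 higher of 8 tested in each comparison. All tested probe sets had 11.1% lower and 15.7% higher in vivo, and 11.7% lower and 16.0% higher in vitro. Medians of the list were 0.11 in vivo and 1.21 in vitro, beside 0.24 and 0.13 over all tested probe sets. Lists this small are not set apart by such counts. Srebf1, which encodes an SREBP precursor, averaged 5.88 in adult in vivo and 4.51 in adult in vitro MII oocytes, against 9.07 in GV (-3.20, adjusted p = 6.06e-05, and -4.57, adjusted p = 1.10e-05, by limma). Insig1, a protein that retains the precursors in the endoplasmic reticulum, averaged 10.65 and 11.35, against 9.15 in GV (1.50, adjusted p = 0.0194, and 2.20, adjusted p = 0.00314, by limma). The proteases Mbtps1 (by 1448240_at) and Mbtps2 release the active factor. After normalization they were higher by 1.56 and 1.34 in vivo and by 1.98 and 1.55 in vitro. On the deposited scale Mbtps1 was instead lower by 0.38 and 0.92, and Mbtps2 was lower by 0.18 in vitro. The other tested Mbtps1 probe set, 1431386_s_at, was not called. It averaged 4.18 in adult in vivo and 1.65 in adult in vitro MII oocytes, against 4.07 in GV. Srebf2, the SREBP gene most tied to cholesterol synthesis, was not called by either probe set, with differences of -1.47 and 0.26 in vivo and of 0.87 and -1.40 in vitro. None of the rises of Insig1, Mbtps1 or Mbtps2 was called with deposited intensities. The in vivo call of Insig1 also ended with median scaling, with the compared arrays alone and with no intensity trend. It further ended without either GV array and without adult in vivo replicate 1 (1.02, adjusted p = 0.0611 by limma). Both Mbtps1 calls ended with median scaling, and its in vivo call also without GV replicate 1.

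For cholesterol uptake, transport and storage 7 of 9 listed genes were tested. By the brightest probe set 2 were lower and 1 higher in both comparisons, beside 26.8% and 27.7% of all tested probe sets called. Medians of the list were 0.87 and 0.39, beside 0.24 and 0.13 over all tested probe sets. Abcg1, a sterol exporter, was lower by 1.97 in vivo and 1.76 in vitro (adjusted p = 0.00380 and 0.0136 by limma), averaging 7.07 and 7.29, against 9.04 in GV. Npc2, a lysosomal cholesterol carrier, was lower by 1.03 and 1.18, but the in vivo call ended with deposited intensities (-1.75, adjusted p = 0.136 by limma), and both calls ended with no intensity trend and without GV replicate 1. The in vitro call of Abcg1 also ended without either GV array and without adult in vitro replicate 1, and that of Npc2 without either adult in vitro array. Stard4, which carries cholesterol between membranes, had probe sets in opposite directions, with 1429240_at higher by 1.57 and 1.51 and 1429239_a_at at -2.70 and -3.19. On deposited intensities 1429240_at was instead lower by 0.39 and 1.43, not called, and 1429239_a_at was still called lower in both. In the 7 comparisons among MII oocytes none of the genes of these 3 lists was called.

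**Figure D5:**
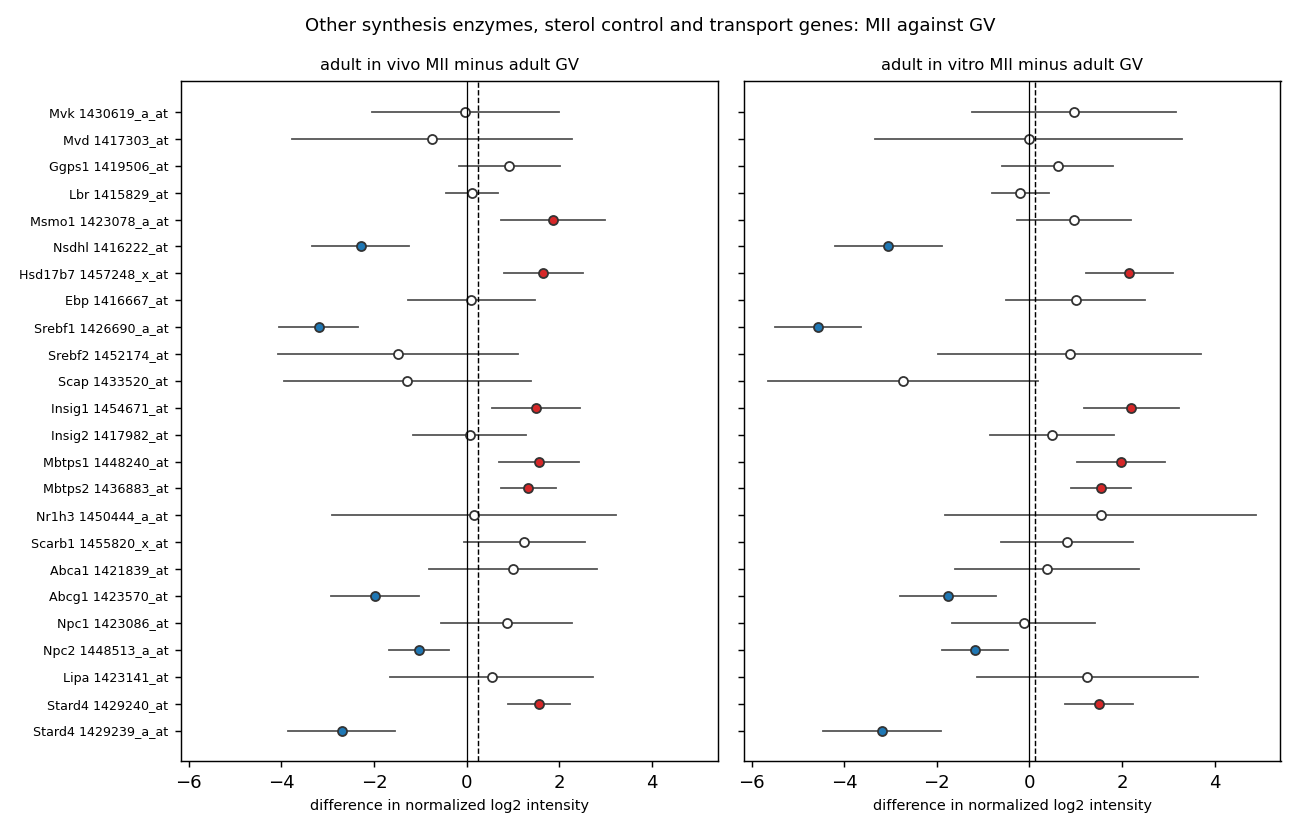
Differences in normalized log2 intensity between adult MII and adult GV oocytes for other synthesis enzymes, sterol control genes and transport genes, 1 probe set a gene (the brightest) and 2 for Stard4. Bars are 95% confidence intervals, blue and red mark lower and higher calls and the dashed line is the median of all tested probe sets; Srebf1, Nsdhl, Abcg1 and Npc2 are lower in both panels, and none of the red calls held with deposited intensities.

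The genes most like Fdft1 1438322_x_at over the 15 arrays, by Pearson correlation of normalized log2 values, were Polr3a (r = 0.989), Arg2 (0.988), Cox7a2l (0.986), Ndel1 (0.986) and Rpl7a (0.982). In each of them, as in Fdft1, the highest of the 13 MII arrays lay below the mean of the 2 GV arrays, and all arrays share normalization. Their MII arrays ran from 3.53 to 5.04 for Polr3a, beside a GV mean of 11.46, and from 6.54 to 7.59 for Rpl7a, beside a GV mean of 12.25.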

How the data were processed

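Affymetrix arrays of 15 oocyte pools in 6 groups were analysed. Per the labels' protocols, RNA with a poly(A) tail was captured on oligo(dT) beads, amplified in repeated cycles and labelled. The deposited intensities are linear MAS5 values for 45101 probe sets, per the submitters' processing notes. No version or scaling target was stated. Array medians ran from 5.08 to 25.3, so log2 intensities were quantile normalized after 64 control probe sets had been left out. Probe sets in the upper 50% by mean over all arrays were tested (22519, at least 3.07 on the log2 scale) with limma 3.58.1 in R 4.3.3, in 1 model with a coefficient for each group, moderated variances with an intensity trend, 9 residual degrees of freedom, and Benjamini-Hochberg adjustment within each of 9 comparisons. Calls have an adjusted p below 0.05. The method was tested on simulated data with independent noise around values already normalized. That test does not bear on normalization or array brightness.

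Gene names came from the platform annotation (34958 probe sets with 1 symbol, 932 with several, 9211 with none), updated through gene identifiers to the GRCm38.p6 table, used for names. All members with every probe set are named, with up to 4 called genes of each other list chosen by size of change or by opposing probe sets, and the 5 genes most like Fdft1. The members, lists and tests were chosen with earlier results of these data known. Levels are not compared between probe sets. Replicates were numbered by record order, which pairs nothing. No pair of arrays shared more than 0.00222% of its values exactly. Alternatives were the values as deposited, median scaling, no filter, the upper 30%, a pseudocount of 1.11, the compared arrays alone, no variance trend, array weights, no dim arrays, any probe set of a gene, and leaving out each array.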

Additional observations from a re-analysis of the deposited data

How the results depend on the processing

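The member counts depended on scaling. In adult in vivo MII against GV oocytes 2 member probe sets were called with the values as deposited (2 lower, 0 higher) and 3 with median scaling (2 lower, 1 higher), in place of 6; in adult in vitro MII against GV 3 were called with the values as deposited (3 lower, 0 higher), in place of 6. Leaving out each array in turn gave 5 to 6 in vivo, 4 to 8 in vitro and 0 in the other comparisons. Without the 4 dim arrays Fdft1 1448130_at differed by 3.14 in d20 in vitro and by 4.50 in d26 in vitro against adult in vitro. That fit kept 1 adult in vitro array and 1 d26 in vitro array, too few to judge these differences. With the values as deposited the in vitro differences reversed for Fdft1 1438918_at (-0.087), Idi1 1451122_at (-0.48) and Sc5d 1451457_at (-1.27). The median of all tested probe sets was then -1.94 in vitro and -0.98 in vivo, with 11 higher and 6224 lower calls in vitro and 23 higher and 3481 lower in vivo, in place of 3607 higher and 2641 lower and of 3542 higher and 2495 lower. Relative to that median these 3 differences were 1.85, 1.46 and 0.68. With median scaling the medians were -0.53 in vitro and -0.21 in vivo. The cause of these shifts was not tested. The Fdft1 falls in 1438322_x_at and 1448130_at were called under all 9 settings and all 15 omissions, from -5.63 to -10.64. Calls over the whole array in adult in vivo MII against GV numbered 3504 with the values as deposited, 10291 with array weights and 3298 without GV replicate 2, in place of 6037; in adult in vitro MII against GV they numbered 3767 without GV replicate 2, in place of 6248. Among MII oocytes they ranged from 0 to 762, the most in d20 against adult in vitro without adult in vitro replicate 1. No paired analysis was possible because replicates were numbered only by record order. Dim probe sets near the filter level limit the size of Fdft1 1448130_at, Lss, Cyp51 and Dhcr7 changes.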
